A study of Mus musculus with 34 samples.

Results

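Mitochondrial ribosomal protein genes encode the proteins of the ribosome that works inside mitochondria. They were taken as all rows of the count table whose gene name begins with Mrpl or Mrps and a digit, which gave 78 of 13108 gene rows, 49 Mrpl and 29 Mrps genes. The rule reads gene names and no measured value. Hematopoietic stem cells (HSCs; Lin-Sca-1+c-Kit+ (LSK) CD48-CD150+ bone marrow cells) were sorted from young mice and from mice aged 1 year with and without Ythdf2, which encodes a reader of the m6A mark that promotes the decay of marked mRNAs. RNA was sequenced from 100 cells per library by SMART-Seq2, a full-length cDNA method that starts from polyadenylated RNA. The comparisons asked how the genes differed between genotypes at each age and between ages within each genotype.

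The groups were 4 young Ythdf2 CTL mice, 4 young Ythdf2 CKO mice, 4 aged Ythdf2 CTL mice and 5 aged Ythdf2 CKO mice, all on the C57BL/6 background. Both genotypes carried the floxed Ythdf2 allele, in which exon 2 is flanked by loxP sites and GFP follows the start codon. CKO mice also carried Vav-iCre, which is active in hematopoietic cells. Whether cells outside this system kept the gene was not examined here. CTL mice were Ythdf2 fl/fl littermates without the Cre. The labels give no number for the age of the young mice. Each mouse had 2 libraries, called A and B, which were summed, and the mouse was the replicate. Library B of aged CTL mouse 99 had 187034 counts and was left out, so this mouse rested on 1 library.

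The mitochondrial ribosome translates the few mRNAs of the mitochondrial genome, which encode core subunits of the respiratory chain and of ATP synthase. Its rRNAs come from that genome, while all of its proteins are encoded in the nucleus, made in the cytosol and imported. Some of these proteins have bacterial counterparts and others are found only in mitochondria. In HSCs, mitochondrial translation and respiration are known to matter when the cells leave quiescence and differentiate.

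The names do not always match the place of the protein. Mrps30 and Mrps18a sit in the large subunit, and Mrps36 is known as a subunit of the 2-oxoglutarate dehydrogenase complex rather than of the ribosome. By this knowledge the 78 genes fell into 30 large-subunit proteins with bacterial counterparts, 21 large-subunit proteins specific to mitochondria, 16 and 10 such small-subunit proteins, and Mrps36.

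Promoters were read for 69 of the 78 genes (75 promoters from RefSeq, GRCm38.p6; 250 bases before to 50 after the start), and 9 genes had no entry. Letters known as binding motifs of factors linked to mitochondrial genes were searched on both strands. The ETS motif CCGGAAGT was found in 12 promoters (16%), against 3.89% of all 32851 promoters and 8.21% of the 12427 promoters of tested genes. The NRF1 motif GCGCNTGCG was found in 18 promoters (24%), against 6.31% and 13.3%. The YY1 motif AAGATGGCG was found in 8 promoters (10.7%), against 1.4% and 3.03%. Of 4 other motifs, CCAAT was in 40% of member promoters against 37.7% of those of tested genes, the Sp1 motif GGGCGG in 52% against 61.9%, the E-box CACGTG in 9.33% against 10.1%, and the TATA motif TATAAA in 6.67% against 6.9%. The ETS, NRF1 and YY1 letters do not contain one another. The stretches below show the ETS and NRF1 letters, in capitals as they read on the gene's strand, in members whose levels are described in the following paragraphs. ETS stands in Mrps22 and, as its reverse complement, in Mrpl48 and Mrps27, and NRF1 in Mrpl12 and, as its reverse complement, in Mrpl10. They run 5′ to 3′, end at or before the start that RefSeq gives, which can differ from the GENCODE gene positions given for genes elsewhere, and overlap no GENCODE exon. A match of letters is a description and not a binding site.
Mrps22 (chr9:98601680-98601720, minus strand): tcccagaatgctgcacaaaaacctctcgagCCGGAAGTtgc
Mrpl48 (chr7:100583131-100583195, minus strand): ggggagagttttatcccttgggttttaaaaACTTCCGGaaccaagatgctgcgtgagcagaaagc
Mrps27 (chr13:99344707-99344774, plus strand): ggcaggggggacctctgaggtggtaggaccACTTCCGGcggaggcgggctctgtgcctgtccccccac
Mrpl12 (chr11:120484526-120484594, plus strand): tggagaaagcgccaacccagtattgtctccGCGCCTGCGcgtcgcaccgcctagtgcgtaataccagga
Mrpl10 (chr11:97041417-97041485, plus strand): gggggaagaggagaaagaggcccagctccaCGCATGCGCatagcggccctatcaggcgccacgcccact

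The 33 libraries used had between 1859784 and 7784627 counts (median 3038180), and mice had between 2218618 (aged CTL 99) and 10125624 counts (aged CKO 81). The library codes in the labels begin differently for young and for aged mice, and what these codes stand for is not stated, so age cannot be told apart from whatever they mark. The stem cell markers Kit, Slamf1 (which encodes CD150), Procr, Hlf and Mecom were detected in every mouse, each at 28.5 CPM or more. Cd48, whose protein was gated out, was at 53.8 to 106 CPM in young mice and at 0.63 to 28.2 CPM in aged mice. Ythdf2 was at 93.3 to 123 CPM in young CTL and 50.3 to 60.2 CPM in young CKO mice. In aged mice Ythdf2 went against 2 labels. It was at 70.5 CPM in the mouse labelled CTL 124, against 142 to 179 CPM in the other CTL mice, and at 188 CPM in the mouse labelled CKO 121, against 72.4 to 87.7 CPM in the other CKO mice. Counts and medians of the comparisons with aged mice are therefore also given without both mice. Reads of Y-linked genes (summed level above 10 CPM) were present in 3 of 4 young CTL, 1 of 4 young CKO, 1 of 4 aged CTL and 1 of 5 aged CKO mice, so sex was not balanced between the young genotypes or, in CTL mice, between ages. Values are CPM, counts scaled by library total and TMM factor. Single values are given in the order of mice 1, 2, 3 and 4 for both young groups, 65, 99, 114 and 124 for aged CTL, and 78, 81, 94, 121 and 122 for aged CKO mice.

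All 78 genes were expressed in every mouse. The lowest count of any of them in a mouse was 28, and all 78 passed the filter on low counts in each fit. Mean levels over the 17 mice ranged from 30.1 CPM (Mrpl47) to 379.9 CPM (Mrpl42), with a median of 110.5 CPM. Per kb of transcript, the scale on which genes were compared, levels ranged from 8.03 to 570.6 CPM per kb with a median of 76.3.

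Mrpl33 and Mrpl42 stood highest at 570.6 and 570.4 CPM per kb, followed by Mrps18c (268), Mrpl14 (256) and Mrpl52 (248). These are a large-subunit protein with a bacterial counterpart (Mrpl33), 2 large-subunit proteins specific to mitochondria (Mrpl42 and Mrpl52), a small-subunit protein of the S18 family (Mrps18c) and the counterpart of bacterial L14 (Mrpl14). Mrps5, the counterpart of bacterial S5, was lowest at 8.03 CPM per kb. Mrpl47 (8.94), Mrpl1 (15.5), Mrpl19 (18.3) and Mrps35 (22.1) came next. The low genes had long annotated transcripts, and the transcript used in these cells was not determined.

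The 3 S18 paralogs differed in level. Mrps18c was at 268 CPM per kb, Mrps18a at 125 and Mrps18b at 61.8. How reads shared by paralogs were counted is not given in the sources used here.

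The mean level of the genes was lower in every aged mouse than in every young mouse, and about as many of them passed the test in CTL as in CKO mice. Most of these calls were lost when trends with transcript length and GC content were removed. Calls of lower genes among all genes then also fell, from 997 to 168 in CTL and from 1154 to 230 in CKO mice. The mean level, the average log2 CPM over the 78 genes, was 7.02 ± 0.18 (SD, n = 4) in young CTL and 6.46 ± 0.25 (SD, n = 4) in aged CTL mice. It was 7.09 ± 0.19 (SD, n = 4) in young CKO and 6.60 ± 0.10 (SD, n = 5) in aged CKO mice. The highest aged mouse (CKO 81, 6.72) was below the lowest young mouse (CTL 2, 6.82). As a share of all counts, the genes held 1.11% ± 0.12 in young CTL, 1.18% ± 0.14 in young CKO, 0.806% ± 0.098 in aged CTL and 0.894% ± 0.058 in aged CKO mice. Aged CTL mouse 99 was lowest on both scales, at 6.11 and 0.674%, and was also the mouse with the fewest counts. In bulk samples, fewer cells that express a gene and less of its RNA per cell cannot be told apart.

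**Figure D1:**
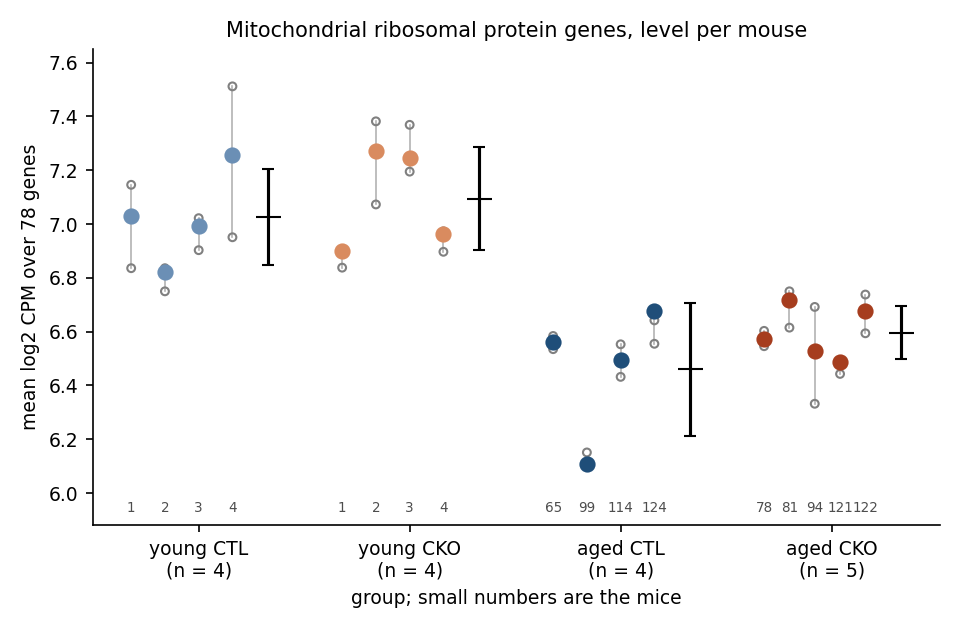
Mean log2 CPM over the 78 genes (y axis) in each of 17 mice (filled points, with the mouse number below) and in each library (open points, scaled over libraries, so that a mouse can lie outside its libraries), by group. Bars give the mean and SD over mice. All 9 aged mice, at 6.11 to 6.72, lie below all 8 young mice, at 6.82 to 7.27.

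The libraries of a mouse differed by 0.041 to 0.561 in this mean (median 0.12), with the widest gap in young CTL mouse 4. Of all 78 genes, 76 had a negative log2 fold change between aged and young CTL mice and 74 between aged and young CKO mice. Positive values rose from 2 and 4 genes to 20 and 19 with the length correction described below, and to 14 in each genotype with the length and GC correction. At an adjusted p under 0.05 (edgeR quasi-likelihood test, adjusted over all 12352 genes tested), 36 genes were lower and 0 higher in aged CTL mice. Among all genes tested, 8.07% were called lower and 6.70% higher. In CKO mice 39 genes were lower and 0 higher with age, beside 9.34% lower and 7.21% higher among all genes. DESeq2 called 41 and 43 members lower and 0 higher, beside 10.2% and 11.3% of all genes lower. At an unadjusted p under 0.05, 0 members were higher in either genotype, beside 15.6% and 14.7% of all genes. The median log2 fold change of the 78 genes was -0.53 in CTL and -0.49 in CKO mice, against 0.11 and 0.07 for all genes.

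In 34 genes all aged CTL mice were below all young CTL mice, against 10% of all genes tested, and in 36 genes all aged CKO mice were below all young CKO mice, against 11.3%. The calls were 30 genes in both genotypes, which is 83.3% of the CTL calls and 76.9% of the CKO calls, while 33 genes were called in neither. The CTL and CKO comparisons share no mice, but they come from the same fit, and the library codes follow age in both. The share of all genes called lower in both genotypes is not given here, so this overlap has no background beside it. The genes called in both were Mrpl1, Mrpl11, Mrpl13, Mrpl15, Mrpl16, Mrpl18, Mrpl20, Mrpl22, Mrpl27, Mrpl30, Mrpl32, Mrpl33, Mrpl34, Mrpl35, Mrpl36, Mrpl39, Mrpl42, Mrpl50 and Mrpl51, and among the Mrps genes Mrps6, Mrps14, Mrps15, Mrps16, Mrps18a, Mrps18c, Mrps21, Mrps22, Mrps31, Mrps33 and Mrps36. In CTL mice alone 6 were called, Mrpl17, Mrpl24, Mrpl49, Mrpl52, Mrps7 and Mrps35, and in CKO mice alone 9, Mrpl40, Mrpl41, Mrpl44, Mrpl46, Mrpl47, Mrpl48, Mrps10, Mrps17 and Mrps25. The age difference did not differ between genotypes past the threshold in any of these, as the interaction test below shows.

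**Figure D2:**
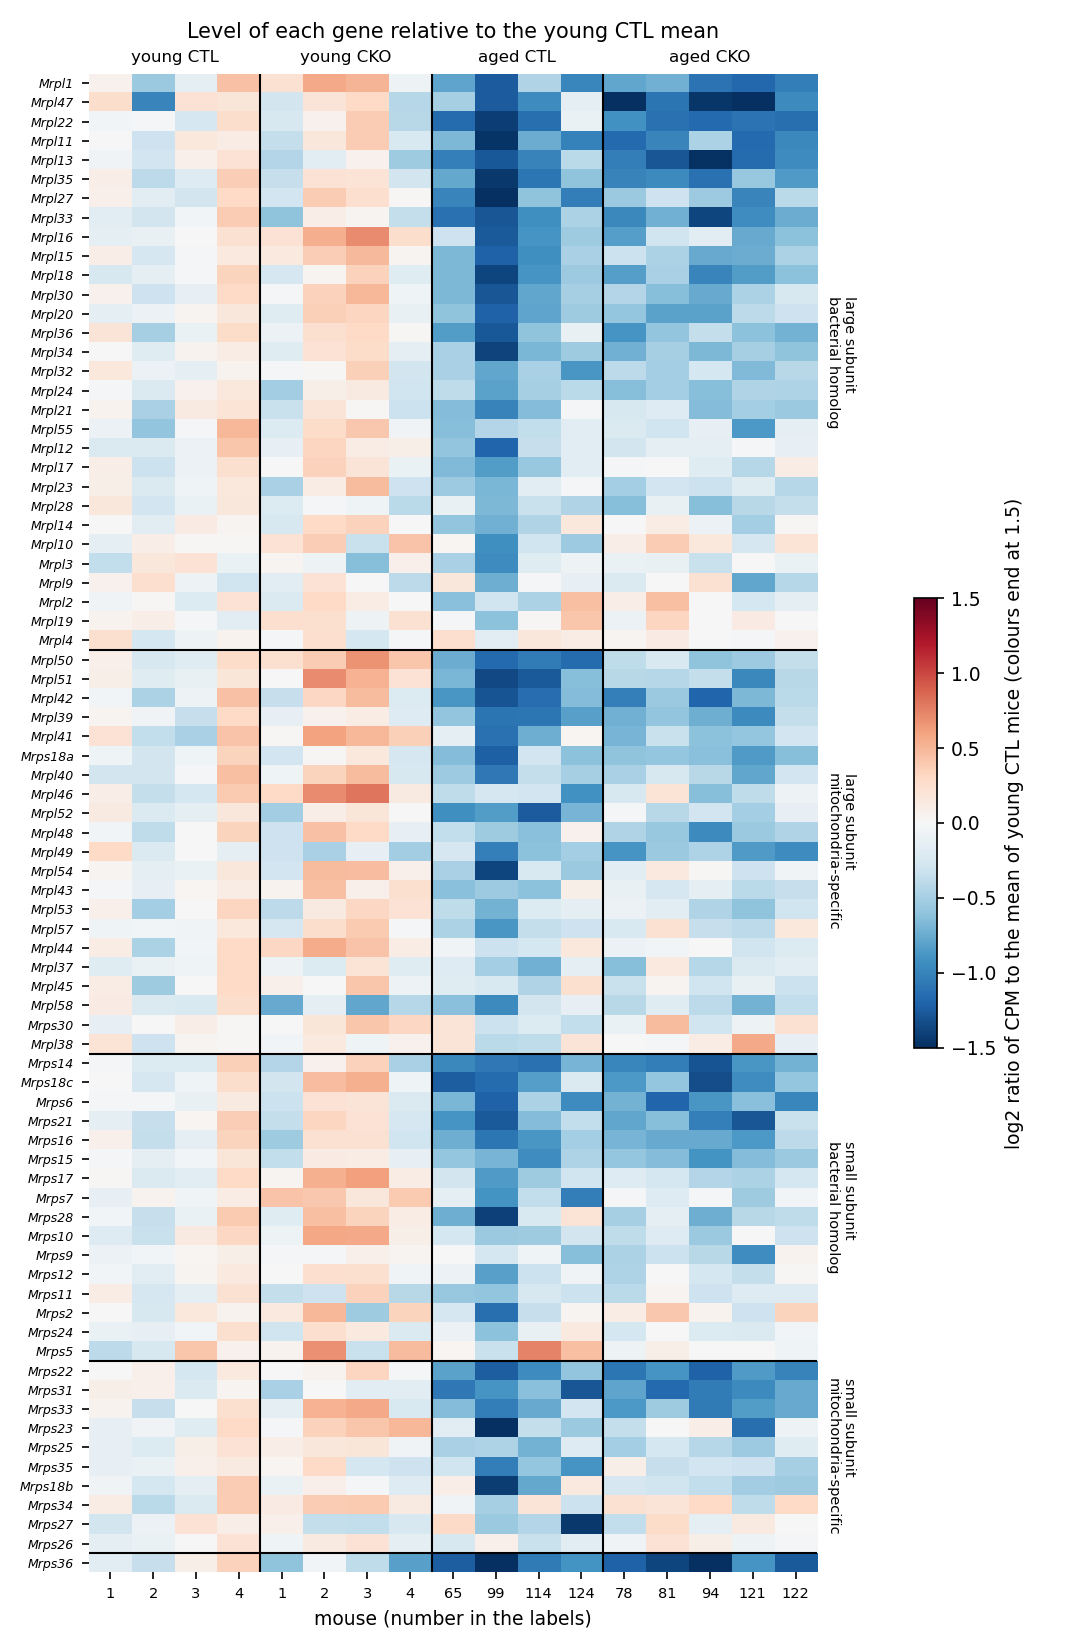
Log2 ratio of CPM to the young CTL mean for each of the 78 genes (rows, grouped by subunit class and ordered by their mean age difference) in each of 17 mice (columns). Blue is lower and red is higher. The aged columns are mostly blue, palest in genes such as Mrpl4 and Mrps26 and darkest in mouse CTL 99.

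Transcript length and base composition moved with the age difference over all genes. The 78 genes have short transcripts, with a median of 1302 bases against 2898 bases for all genes tested, while their median GC content (50.4%) was close to that of all genes (50.2%). In the shortest eighth of all genes (up to 1287 bases) the median log2 fold change with age was -0.42 in CTL and -0.40 in CKO mice. In the seventh eighth (4382 to 5768 bases) it was 0.40 and 0.24, and in the longest (from 5769 bases) 0.38 and 0.08. In the eighth with the lowest GC content it was -0.30 and -0.42, and in that with the highest 0.51 and 0.58. The 38 members in the shortest eighth had medians of -0.65 and -0.64, and the 7 members between 3530 and 4381 bases had -0.67 and -0.69 where all genes of that length had 0.27 and 0.24.

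When each mouse's trend with length was removed, 16 genes were lower and 1, Mrpl4, higher in aged CTL mice (5.59% of all genes lower and 4.95% higher), and 22 were lower in aged CKO mice (8.73%). Of the 36 and 39 calls made without correction, 14 and 21 held. When the trends with length and GC content were both removed, 8 genes were lower in each genotype, beside 1.36% and 1.86% of all genes. The medians of the 78 genes were then -0.24 and -0.21, against 0.06 and 0.02 for all genes. Most of the calls in both genotypes were lost with the length and GC correction, which is meant wherever a single gene's value is given with correction. Both corrections were chosen after the data were seen. Of the 8 genes, 7 in each genotype had been called before correction, and Mrpl11, Mrpl15, Mrpl51 and Mrps7 were called in both genotypes. Whether the trends come from age or from what the library codes mark cannot be told apart.

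**Figure D3:**
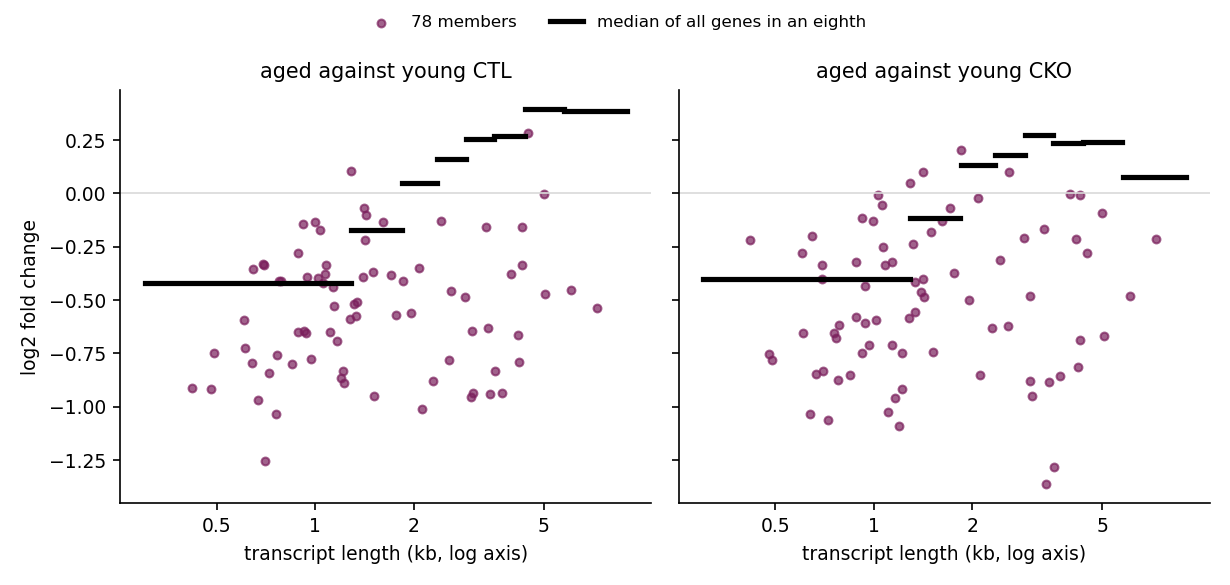
Log2 fold change of aged against young mice (y axis) by transcript length (x axis, log scale) in CTL (left) and CKO mice (right). Points are the 78 genes and bars are medians of all genes tested in eighths of length, with the end bars drawn from 0.3 kb and to 9 kb. In the shortest eighth the members lie around and below the bar (medians -0.65 and -0.64 against -0.42 and -0.40), and between 3530 and 4381 bases all 7 members lie below it.

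The large subunit with bacterial counterparts had 17 of 30 genes lower with age in CTL and 16 of 30 in CKO mice, with medians of -0.64 and -0.57. With length correction 6 and 9 were lower, and with length and GC correction 3 and 4. Mrpl15, the counterpart of bacterial L15, was called with and without the corrections (gene at chr1:4773206-4785739, GRCm38). It was at 177, 139, 163 and 183 CPM in young CTL, 183, 214, 232 and 169.7 CPM in young CKO, 104, 71.4, 87.3 and 118 CPM in aged CTL and 132, 119, 98.04, 98.9 and 119.6 CPM in aged CKO mice. No aged mouse reached the lowest young mouse. The log2 fold change with age was -0.79 ± 0.18 (SE; adjusted p = 0.00584) in CTL and -0.81 ± 0.17 (SE; adjusted p = 0.00263) in CKO mice. With length and GC correction it was -0.88 (adjusted p = 0.0164) and -0.86 (adjusted p = 0.00732).

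Of the 5 members with the highest level per kb of transcript, Mrpl33, Mrpl42 and Mrps18c were called lower in both genotypes and Mrpl52 in CTL mice. Mrpl33 was at 338, 312, 368 and 492 CPM in young CTL and 174, 156, 199 and 272 CPM in aged CTL mice, with a log2 fold change of -0.92 ± 0.21 (SE; adjusted p = 0.00603), and of -0.75 ± 0.19 (SE; adjusted p = 0.0112) in CKO mice. With correction these were -0.08 (adjusted p = 0.824) and 0.09 (adjusted p = 0.787). Mrpl36, whose promoter holds the YY1 letters, is a small zinc-binding protein. It was at 269.7 ± 61.5 CPM (SD, n = 4) in young CTL, 172 ± 57.9 CPM (SD, n = 4) in aged CTL, 294 ± 36.9 CPM (SD, n = 4) in young CKO and 175 ± 23.5 CPM (SD, n = 5) in aged CKO mice. The age differences were -0.64 ± 0.21 (SE; adjusted p = 0.044) and -0.75 ± 0.20 (SE; adjusted p = 0.013), and with correction they were -0.10 (adjusted p = 0.828) and -0.21 (adjusted p = 0.586).

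Mrpl11, the counterpart of bacterial L11 at the stalk base where translation factors dock (chr19:4962147-4966999), was at 113, 91.03, 126 and 122 CPM in young CTL and 70.9, 40.8, 67.4 and 55.9 CPM in aged CTL mice. In CKO mice it was at 87.8, 127, 146 and 96.4 CPM when young and 50.4, 56.96, 81.5, 50.4 and 57.8 CPM when aged. The groups did not overlap in either genotype. Its log2 fold change was -0.93 ± 0.22 (SE; adjusted p = 0.00789) in CTL and -0.95 ± 0.21 (SE; adjusted p = 0.00385) in CKO mice, and -1.01 (adjusted p = 0.0351) and -1.23 (adjusted p = 0.00591) with correction.

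Mrpl1, which forms the L1 stalk beside the site where tRNAs leave (chr5:96209493-96266727), was at 79.5, 100.5, 96.4 and 64.1 CPM in young CKO and 39.3, 40.9, 31.3, 30 and 32.97 CPM in aged CKO mice. These groups were apart, with a log2 fold change of -1.28 ± 0.22 (SE; adjusted p = 0.000837) and of -1.12 (adjusted p = 0.0109) with correction. In CTL mice, at 70.8, 46.1, 61.7 and 92.03 CPM when young and 39.2, 28.5, 49.3 and 34.5 CPM when aged, the groups overlapped, with a log2 fold change of -0.83 ± 0.24 (SE; adjusted p = 0.0238) and of -0.60 (adjusted p = 0.213) with correction. Of the 6 stalk and factor-binding genes (also Mrpl10, Mrpl11, Mrpl12, Mrpl53 and Mrpl54), Mrpl1 and Mrpl11 were called lower in both genotypes, both still with length correction, while with length and GC correction 1 call remained in CTL and 2 in CKO mice. Mrpl12, the L7/L12 stalk protein, whose NRF1 letters are shown above, was at 236 ± 53.2 CPM (SD, n = 4) in young CTL, 165 ± 46.5 CPM (SD, n = 4) in aged CTL, 254 ± 31.99 CPM (SD, n = 4) in young CKO and 216 ± 13.6 CPM (SD, n = 5) in aged CKO mice. Its age difference did not pass the test in either genotype (log2 fold change -0.52 ± 0.19 SE, adjusted p = 0.0737, and -0.24 ± 0.18 SE, adjusted p = 0.401).

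Around the exit of the nascent chain, 4 of 9 listed genes were lower in CTL and 4 in CKO mice. In CTL mice these were Mrpl17, Mrpl22, Mrpl24 and Mrpl39, and in CKO mice Mrpl22, Mrpl39, Mrpl44 and Mrpl47. With length correction 2 and 3 were lower, and with length and GC correction 1 in each. Mrpl39, whose promoter holds the NRF1 letters, was at 136 ± 24.6 CPM (SD, n = 4) in young CTL and 73.9 ± 12.5 CPM (SD, n = 4) in aged CTL mice (-0.88 ± 0.18 SE, adjusted p = 0.00412), and had -0.63 ± 0.17 (SE; adjusted p = 0.0148) in CKO mice. With correction these were -0.74 (adjusted p = 0.0407) and -0.61 (adjusted p = 0.0649), and with length correction alone both calls held at -0.89 (adjusted p = 0.00833) and -0.78 (adjusted p = 0.00807). Mrpl44 has a fold like that of RNase III. Mrpl47, the counterpart of bacterial L29, had the largest difference in CKO mice at -1.36 ± 0.32 (SE; adjusted p = 0.00598) and was the least abundant member by CPM. Mrpl4, the counterpart of bacterial L4, was not called without correction or with length and GC correction, but was higher in aged CTL mice with length correction alone, at 0.46 (adjusted p = 0.0337). It was at 174 ± 25.98 CPM (SD, n = 4) in young CTL and 187 ± 22.3 CPM (SD, n = 4) in aged CTL mice, with a log2 fold change of 0.10 ± 0.15 (SE; adjusted p = 0.691), and at 173 ± 25.9 CPM (SD, n = 4) and 179 ± 7.52 CPM (SD, n = 5) in CKO mice (0.05 ± 0.15 SE, adjusted p = 0.863).

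In the central protuberance, the crest of the large subunit, 2 of 8 genes were lower in CTL mice (Mrpl18 and Mrpl27) and 5 of 8 in CKO mice (Mrpl18, Mrpl27, Mrpl40, Mrpl46 and Mrpl48). Under either correction 0 were lower in CTL and 1 in CKO mice. Mrpl27, whose bacterial counterpart reaches the peptidyl transferase centre, was at 123, 104, 96.4 and 144 CPM in young CTL and 58.6, 33.8, 77.1 and 57.1 CPM in aged CTL mice. The groups were apart, with a log2 fold change of -1.03 ± 0.23 (SE; adjusted p = 0.00548), and it was -0.65 ± 0.21 (SE; adjusted p = 0.0381) in CKO mice. Neither call remained with correction, at -0.48 (adjusted p = 0.135) and -0.13 (adjusted p = 0.75). Mrpl38, of the same crest, had a log2 fold change in CKO mice of 0.10 ± 0.19 (SE; adjusted p = 0.758). Mrpl58, a peptidyl-tRNA hydrolase that became part of the ribosome, was at 0.10 ± 0.20 (SE; adjusted p = 0.779) in CKO mice.

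Among large-subunit proteins specific to mitochondria, 7 of 21 were lower in CTL and 10 of 21 in CKO mice, with a median of -0.46 in each. With length correction 3 and 4 were lower, and with length and GC correction 2 in each. Mrpl50 (chr4:49512596-49521093) had the smallest p of all members in CTL mice. It was at 133, 107, 111 and 153 CPM in young CTL and 75.5, 56.1, 60.9 and 56.7 CPM in aged CTL mice. In CKO mice it was at 149, 164, 201 and 168 CPM when young and 97.04, 108, 82.7, 86.2 and 98.2 CPM when aged. Young and aged mice were apart in both genotypes, with log2 fold changes of -1.01 ± 0.17 (SE; adjusted p = 0.00121) and -0.85 ± 0.16 (SE; adjusted p = 0.00151). With correction these were -0.49 (adjusted p = 0.0938) and -0.41 (adjusted p = 0.127), past no threshold, while with length correction alone both calls held at -0.96 (adjusted p = 0.00261) and -0.91 (adjusted p = 0.00117).

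Mrpl51 (chr6:125191801-125196269), whose promoter holds the ETS letters, was at 159.6, 132, 139 and 171 CPM in young CTL and 93.2, 58.99, 62.7 and 96.8 CPM in aged CTL mice. In CKO mice it was at 150.2, 246, 215 and 175 CPM when young and 113, 112, 117, 77.2 and 113 CPM when aged, where the mouse labelled 121 was lowest. No aged mouse reached the young mice of its genotype. The log2 fold changes were -0.94 ± 0.20 (SE; adjusted p = 0.00477) and -0.89 ± 0.19 (SE; adjusted p = 0.00344), and with correction -0.87 (adjusted p = 0.038) and -0.90 (adjusted p = 0.0179).

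**Figure D4:**
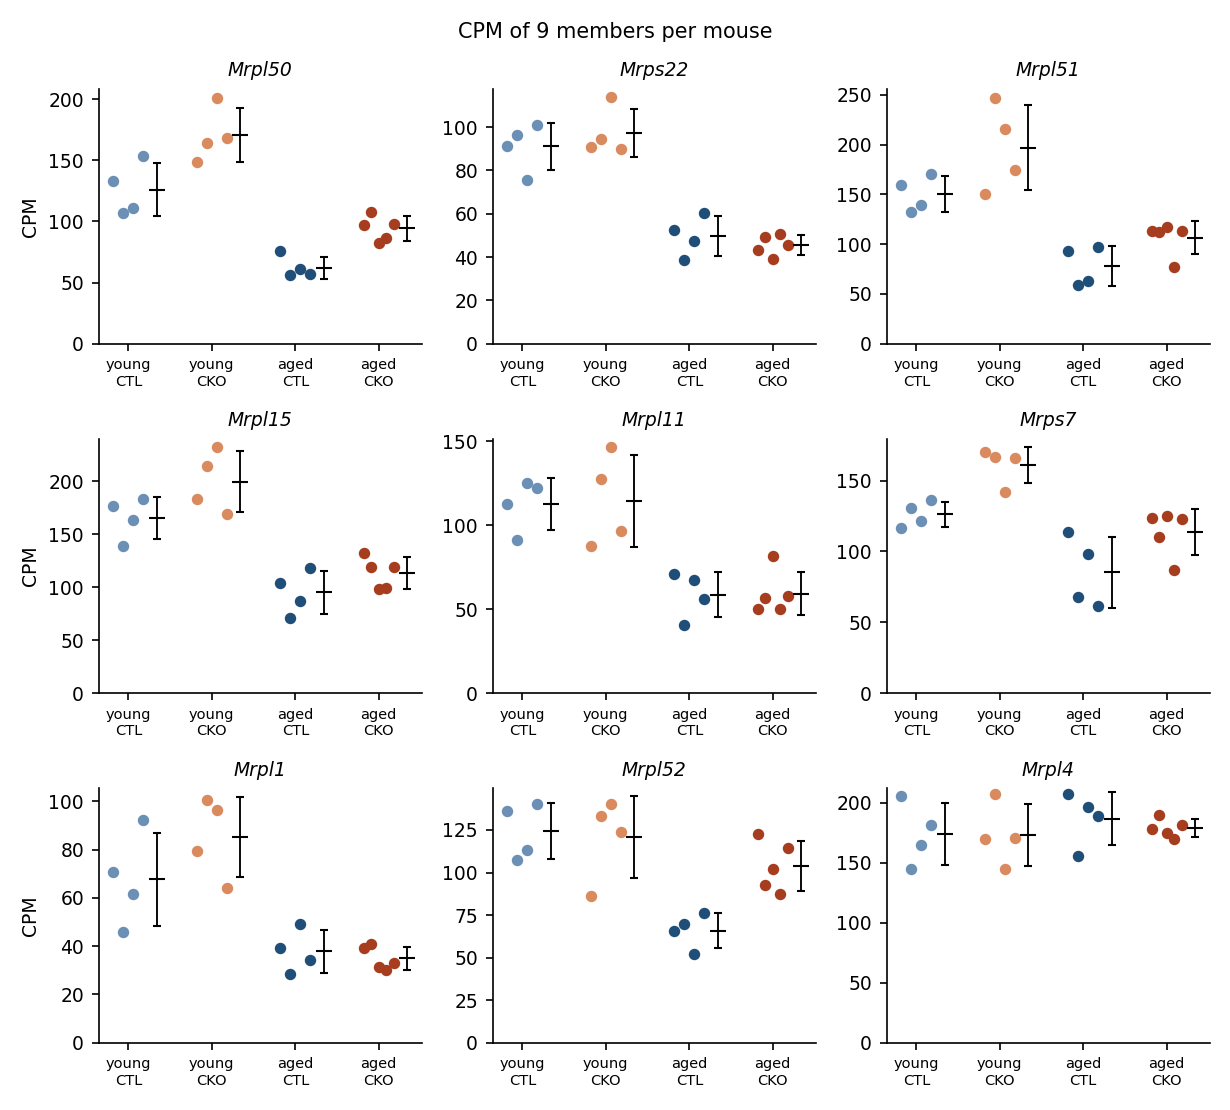
CPM (y axis) of 9 genes in each mouse by group, with the mean and SD beside the points. Mrpl50, Mrps22, Mrpl51, Mrpl15 and Mrpl11 are lower in every aged mouse than in every young mouse of the same genotype, while the groups overlap in Mrpl4, and in Mrpl52 every aged CKO mouse lies above every aged CTL mouse.

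The small subunit with bacterial counterparts had 7 of 16 genes lower in CTL and 8 of 16 in CKO mice, with medians of -0.44 and -0.60. With length correction 4 and 5 were lower, and with length and GC correction 1 and 2. Mrps14, the counterpart of S14 in the head of the subunit, fell from 369 ± 73.1 CPM (SD, n = 4) to 191 ± 25.6 CPM (SD, n = 4) in CTL mice, a log2 fold change of -0.95 ± 0.19 (SE; adjusted p = 0.00368). In CKO mice it fell from 348 ± 97.6 CPM (SD, n = 4) to 189 ± 27.7 CPM (SD, n = 5) (-0.88 ± 0.18 SE, adjusted p = 0.00291). With correction these were -0.44 (adjusted p = 0.321) and -0.45 (adjusted p = 0.285), and with length correction alone both calls held at -1.06 (adjusted p = 0.00773) and -1.15 (adjusted p = 0.00181). Mrps7, the counterpart of S7, which organises that head (chr11:115603925-115608036), was at 116, 131, 121 and 136 CPM in young CTL and 114, 67.7, 97.9 and 61.5 CPM in aged CTL mice. In CKO mice it was at 170.2, 166, 142 and 166 CPM when young and 124, 110.3, 125, 86.96 and 123 CPM when aged. The log2 fold changes, -0.56 ± 0.19 (SE; adjusted p = 0.0491) and -0.50 ± 0.18 (SE; adjusted p = 0.0555), lay on either side of the threshold, and with correction they were -0.69 (adjusted p = 0.029) and -0.77 (adjusted p = 0.00743). Mrps5, one of the 2 members with a positive value in CTL mice (the other was Mrpl4), had 0.28 ± 0.28 (SE; adjusted p = 0.527) there and -0.28 ± 0.26 (SE; adjusted p = 0.507) in CKO mice.

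Among small-subunit proteins specific to mitochondria, 4 of 10 were lower in each genotype. With length correction 3 and 4 were lower, and with length and GC correction 2 and 0. Mrps22 (chr9:98588730-98601660) had the smallest p of all members in CKO mice. It was at 91.5, 96.3, 75.8 and 101 CPM in young CTL and 52.4, 38.8, 47.5 and 60.5 CPM in aged CTL mice, and at 90.7, 94.5, 114 and 89.8 CPM in young CKO and 43.1, 49.3, 39.3, 50.5 and 45.6 CPM in aged CKO mice. All aged mice were below all young mice, with log2 fold changes of -0.86 ± 0.18 (SE; adjusted p = 0.00459) and -1.09 ± 0.17 (SE; adjusted p = 0.000367). With correction they were -0.20 (adjusted p = 0.606) and -0.43 (adjusted p = 0.163), and with length correction alone -0.52 (adjusted p = 0.0607) and -0.78 (adjusted p = 0.00371). Mrps31 and Mrps33 were called lower in both genotypes, Mrps35 in CTL and Mrps25 in CKO mice. With correction Mrps31 was at -0.27 (adjusted p = 0.567) and -0.07 (adjusted p = 0.899), and Mrps33 turned to 0.28 (adjusted p = 0.417) in CTL and was at -0.05 (adjusted p = 0.916) in CKO mice. With length correction alone Mrps31 held both calls at -0.72 (adjusted p = 0.0274) and -0.57 (adjusted p = 0.0447), and Mrps33 held that in CKO mice at -0.58 (adjusted p = 0.02) but not in CTL mice at -0.18 (adjusted p = 0.549). Mrps35 kept its call in CTL mice at -0.91 (adjusted p = 0.0252), and Mrps25 had -0.61 (adjusted p = 0.0389) in CTL and -0.42 (adjusted p = 0.119) in CKO mice, where with length correction alone it had -0.62 (adjusted p = 0.00822). Mrps27, a pentatricopeptide repeat protein, had -0.41 ± 0.26 (SE; adjusted p = 0.297) in CTL and 0.21 ± 0.24 (SE; adjusted p = 0.613) in CKO mice.

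Mrps18a was called lower in both genotypes (-0.65 ± 0.19 SE, adjusted p = 0.0266, and -0.58 ± 0.18 SE, adjusted p = 0.0303), as was Mrps18c (-0.80 ± 0.23 SE, adjusted p = 0.0259, and -1.04 ± 0.22 SE, adjusted p = 0.00322). With correction Mrps18a was at -0.44 (adjusted p = 0.105) and -0.43 (adjusted p = 0.094), and Mrps18c turned to 0.03 (adjusted p = 0.958) in CTL and was at -0.18 (adjusted p = 0.592) in CKO mice, where it was called with length correction alone at -0.53 (adjusted p = 0.0215). Mrps18b did not pass the test (-0.33 ± 0.26 SE, adjusted p = 0.409, and -0.33 ± 0.24 SE, adjusted p = 0.38). Mrps30, of the large subunit, had -0.16 ± 0.18 (SE; adjusted p = 0.594) and -0.17 ± 0.17 (SE; adjusted p = 0.551). Mrps36, the dehydrogenase subunit, was at 47.3, 41.9, 56.5 and 67.4 CPM in young CTL and 22.6, 11.6, 25.5 and 28.6 CPM in aged CTL mice, with a log2 fold change of -1.26 ± 0.29 (SE; adjusted p = 0.00709), and of -0.45 (adjusted p = 0.354) with correction. In CKO mice it had -0.83 ± 0.27 (SE; adjusted p = 0.0392), which turned to 0.02 (adjusted p = 0.983) with correction.

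**Figure D5:**
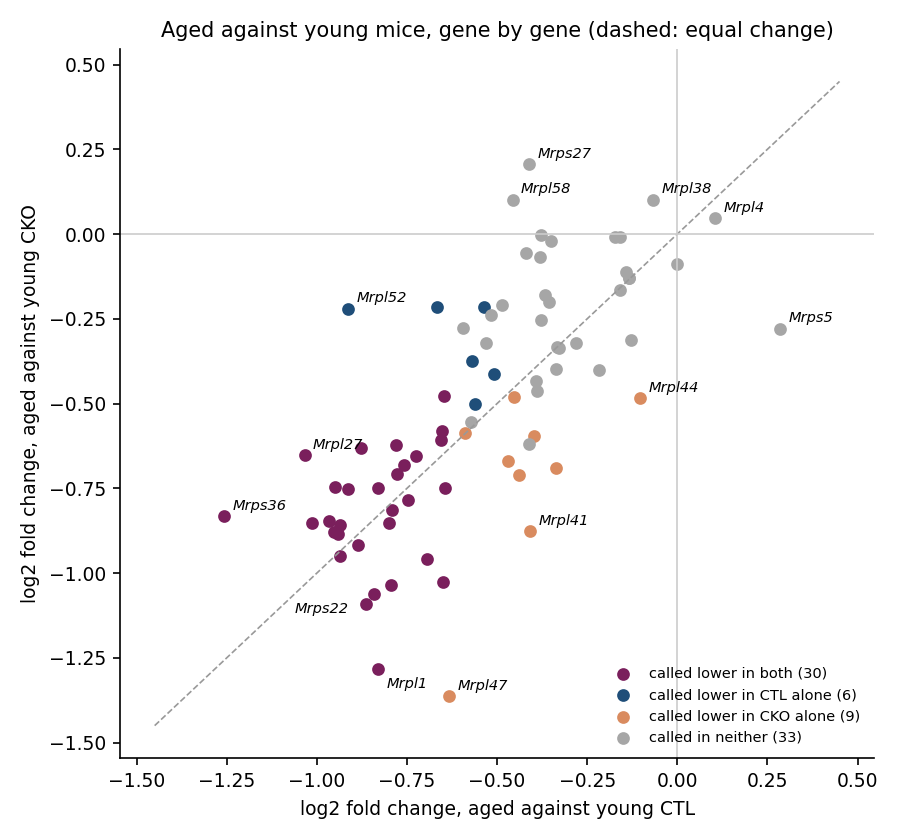
Log2 fold change of aged against young CTL mice (x axis) and of aged against young CKO mice (y axis) for the 78 genes, coloured by where they were called lower. The dashed line marks equal change. Both values are negative in 73 genes, and 30 were called in both.

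The 33 genes called in neither genotype had log2 fold changes with age between -0.59 and 0.28 in CTL and between -0.62 and 0.21 in CKO mice. Of the 4 genes listed around the peptidyl transferase centre, Mrpl16 and Mrpl27 were called lower in both genotypes and Mrpl2 and Mrpl3 in neither, with medians of -0.54 and -0.33 over the 4. With length correction 0 were lower in CTL and 1 in CKO mice, and with length and GC correction 0 in each. Mrpl2 had -0.17 ± 0.21 (SE; adjusted p = 0.629) in CTL and -0.01 ± 0.20 (SE; adjusted p = 0.982) in CKO mice, and Mrpl3 had -0.38 ± 0.20 (SE; adjusted p = 0.222) and -0.00 ± 0.19 (SE; adjusted p = 0.993). Mrpl28, the most abundant of the 33 by CPM, was at 310.1 ± 46.6 CPM (SD, n = 4) in young CTL and 238 ± 38.4 CPM (SD, n = 4) in aged CTL mice, and at 276 ± 32.5 CPM (SD, n = 4) and 232 ± 36.2 CPM (SD, n = 5) in CKO mice. Mrps2, Mrps9, Mrps34, Mrpl23, Mrpl37, Mrpl43, Mrpl45 and Mrpl57 were also among the uncalled genes. A value that missed the threshold does not show that the ages were alike.

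Leaving out the mice labelled CTL 124 and CKO 121 gave 40 genes lower in CTL and 35 in CKO mice, beside 9.92% and 10.4% of all genes, with medians of -0.60 and -0.44. Leaving out single mice gave between 20 genes (without young CTL 4, beside 4.29% of all genes) and 42 genes (without aged CTL 124, beside 9.58%) in CTL mice. Without aged CTL 99, the mouse of lowest depth, it gave 23 genes, beside 5.30%, and without young CTL 1 it gave 24, beside 5.27%. Among CKO mice the range was between 24 genes (without young CKO 2, beside 5.92%) and 38 genes (without young CKO 4, beside 8.87%). Scaling by library totals alone moved the median of all genes from 0.11 to 0.21 in CTL and from 0.07 to 0.17 in CKO mice. It turned the split of all calls from 828 higher and 997 lower to 1110 and 764 in CTL mice, and from 891 and 1154 to 1126 and 870 in CKO mice. The members had 28 and 32 genes lower and 0 higher under that scaling, beside 6.19% and 7.04% of all genes lower. Relative to the median of all genes, their median was -0.65 under TMM and library totals in CTL mice and -0.56 in CKO mice. With Y-linked expression as a covariate 44 members were lower in CTL (median -0.67) and 41 in CKO mice (median -0.50), beside 8.65% and 9.63% of all genes.

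Markers of other cells were summed in each mouse. The 3 multipotent progenitor markers (Cd48, Flt3 and Cd34) summed to 464 to 581 CPM in young CTL, 517 to 675 CPM in young CKO, 184 to 616 CPM in aged CTL and 241 to 355.5 CPM in aged CKO mice. The 16 proliferation genes summed to 3629 to 4586, 2523 to 3910, 2183 to 4686 and 3123 to 4316 CPM in these groups, and their median log2 fold change with age was -0.31 in CTL and 0.13 in CKO mice. Of 8 megakaryocyte and platelet markers, 7 were in the table and summed to 538 to 914, 1059 to 3281, 427 to 655 and 579.8 to 2123 CPM. The 6 erythroid markers in the table summed to at most 135 CPM and the 4 lymphocyte markers to at most 155 CPM in any mouse. Of these 4 lymphocyte markers, 2 were at 0 counts in all mice of each young group and 1 in all mice of each aged group. Granulocyte and monocyte markers summed to 569 to 1262 CPM over all mice. The part of other cells in the age difference was not tested.

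Other genes of mitochondrial translation did not all share the difference. Of 5 tested ribosome subunits with other names, Chchd1, a small-subunit protein, was called lower in CTL (-0.85 ± 0.22 SE; adjusted p = 0.0157) and CKO mice (-0.88 ± 0.21 SE; adjusted p = 0.00688). Dap3, Ptcd3, Aurkaip1 and Gadd45gip1 were not called, and Gadd45gip1 had 0.33 in CKO mice. Of 24 genes of ribosome assembly and rRNA modification, 2 were lower in each genotype (8.33%), near the 8.07% in CTL and 9.34% in CKO mice of all genes. These were Mterf3 (-1.08 in CTL and -0.92 in CKO) and Tfb1m (-0.89 and -1.15), which dimethylates the small rRNA. The RNA helicase Dhx30 (0.99) and the rRNA methyltransferase Mrm1 (0.90) were higher in aged CKO mice, beside 7.21% of all genes. The list's median was -0.10 in CTL and -0.04 in CKO mice under TMM and 0.01 and 0.06 under library totals.

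Of 14 translation factors and related proteins, Slirp, an RNA-binding partner of Lrpprc, was lower in both genotypes (-0.92 and -0.84) and no other gene was called. This is 7.14% of the list, beside 8.07% in CTL and 9.34% in CKO mice of all genes lower. Of 17 mitochondrial aminoacyl-tRNA synthetases none was lower, and Lars2 was higher in CTL mice (1.98 ± 0.62 SE, adjusted p = 0.0352), beside 6.70% of all genes higher there. Their median was 0.23 in CTL and 0.27 in CKO mice. With length and GC correction it was 0.02 and 0.06, against 0.06 and 0.02 for all genes. Tfam, which packages mitochondrial DNA and starts its transcription, was lower in both (-0.65 and -0.64), and the elongation factor Tefm in CKO mice (-1.02). The 15 genes of the mitochondrial genome listed were not analysed here. With length and GC correction the list of Chchd1 had 1 call in CTL and 0 in CKO mice, the assembly, synthetase and transcription lists had 0 calls, and the translation factors had 1 in each genotype.

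Complex I subunits (Nduf genes), which depend on mitochondrial translation for their core partners, had medians of -0.55 and -0.51 with 16 and 18 of 35 genes lower. With correction 1 and 0 were lower, and the medians were -0.10 and -0.11. Cytosolic ribosomal protein genes were taken by names that begin with Rpl or Rps and a number. This list also held other genes, such as Rps19bp1. It had medians of -0.34 and -0.46, with 14 and 28 of 88 genes lower and 1 higher in each genotype. With correction 1 and 4 were lower and 2 and 0 higher, with medians of 0.10 and -0.04. Many cytosolic ribosomal protein genes have pseudogene copies that can share reads. The directions of both families were the same under TMM, DESeq2 size factors and library totals.

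No member differed between genotypes past the threshold in young mice. In young CKO against CTL mice 0 of 78 genes passed an adjusted p of 0.05, beside 0.174% of 11526 genes tested, and DESeq2 called 0 members beside 0.503% of all genes higher and 0.165% lower. At an unadjusted p under 0.05, 5 were higher and 1 lower, beside 4.26% and 2.80% of all genes. The median log2 fold change was 0.10, with 49 of 78 positive, against -0.001 for all genes. With Y-linked expression as a covariate the median turned to -0.05 with 29 of 78 positive, and unadjusted p-values under 0.05 then marked 1 gene as higher and 4 as lower, beside 3.83% and 3.19% of all genes, so the direction of the median and of this split depends on a measure of sex. Leaving out single mice gave between 0.01 (without young CTL 2) and 0.14 (without young CTL 4), with 0.02 without young CKO 3 and 0.03 without young CKO 2. The genes higher at an unadjusted p under 0.05 then numbered between 1 (without young CTL 3, beside 4.08%) and 11 (without young CTL 4, beside 4.01%).

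The 5 genes higher without the covariate were Mrpl16 (the counterpart of L16), Mrpl50, Mrpl46, Mrps7 and Mrpl51, and the lower one was Mrpl58. With the covariate Mrps7 was higher and Mrpl58, Mrps36, Mrpl13 and Mrpl33 were lower. Mrps7 was the 1 member whose young groups did not overlap, beside 2.68% of all genes, at 142 CPM or more in CKO mice and 136 CPM or less in CTL mice. Its log2 fold change was 0.35 ± 0.14 (SE; adjusted p = 0.583). Mrpl50 had 0.44 ± 0.16 (SE; adjusted p = 0.518), Mrpl16 had 0.45 ± 0.16 (SE; adjusted p = 0.512) and Mrpl46 had 0.52 ± 0.20 (SE; adjusted p = 0.562). Mrpl58 had -0.50 ± 0.20 (SE; adjusted p = 0.589), and Mrpl49 (-0.35) and Mrps36 (-0.43) were the next lower members. The smallest adjusted p of any member was 0.512.

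In aged CKO against CTL mice 0 of 78 genes passed, beside 0% of 11961 genes tested, and DESeq2 called 0 members beside 0.451% of all genes higher and 0.418% lower. At an unadjusted p under 0.05, 6 were higher and 0 lower, beside 4.45% and 5.65% of all genes. The median log2 fold change was 0.10, with 54 of 78 positive, against -0.0033 for all genes. Without the mice labelled CTL 124 and CKO 121 the median was 0.21, 13 genes had an unadjusted p under 0.05 and a positive difference and 0 a negative one, beside 5.53% and 6.05% of all genes, and 0 members were called while 25 genes of all tested were called higher and 15 lower. Without aged CTL 99 the median was 0.01 with 39 of 78 positive. At an unadjusted p under 0.05, 2 members were then higher and 1 lower, beside 691 and 965 of 12130 genes. Without aged CTL 124 the median was 0.18, with 10 members higher and 0 lower at that p, beside 573 and 560 of 12153 genes. With the Y-linked covariate 8 members had a positive difference at an unadjusted p under 0.05 and 1 a negative one, beside 4.95% and 5.36% of all genes, and the median was 0.10. The likelihood ratio test over libraries called 1 member higher and 0 lower, beside 1.21% and 2.52% of all genes. It took each library as a replicate, although libraries of the same mouse are not independent.

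Mrpl52, a large-subunit protein specific to mitochondria, was at 65.6, 69.7, 52.1 and 76.3 CPM in aged CTL and 123, 92.9, 102, 87.5 and 114 CPM in aged CKO mice. All CKO mice were above all CTL mice, as in 1 other member, Mrpl50, and in 1.78% of all genes. The log2 fold change was 0.66 ± 0.19 (SE; adjusted p = 0.321). Mrpl50 had 0.60 ± 0.18 (SE; adjusted p = 0.329). Mrpl17 (0.45), Mrpl54 (0.55), Mrpl10 (0.52), the anchor of the L7/L12 stalk, and Mrpl51 (0.46) were the others at an unadjusted p under 0.05. The lower members of smallest p were Mrpl47 (-0.74), Mrpl13 (-0.27), Mrpl48 (-0.24), Mrps5 (-0.28) and Mrpl22 (-0.23). Mrpl22 turned to 0.14 without the 2 mice.

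The genotype effect did not differ between ages at the threshold in any member. The interaction called 0 of 78 members and 0% of 12352 genes by the quasi-likelihood test and 0 members by DESeq2, while the likelihood ratio test over mice called 3 genes higher and 1 lower, none of them a member. At an unadjusted p under 0.05 there was 1 member, Mrpl52, beside 2.06% of all genes higher and 2.70% lower. The median of the members was 0.05, with 46 of 78 positive, against -0.02 for all genes. Without the mice labelled CTL 124 and CKO 121 the median was 0.13 with 61 positive, and 5 members had an unadjusted p under 0.05 with a positive interaction and 0 with a negative one, beside 2.84% and 3.88% of all genes. These were Mrpl2, Mrpl14, Mrpl17, Mrpl52 and Mrpl58, and 0 members were called while 1 gene of all tested was called higher and 14 lower. With the Y-linked covariate the median was 0.20 with 59 positive, and Mrpl12, Mrpl27, Mrpl52, Mrpl54 and Mrpl58 were higher and 0 members lower at that p, beside 2.14% and 2.26%. The direction of the median was not stable, since it turned to -0.06 without aged CTL 99 or without young CTL 4, to -0.02 without young CKO 1 and to -0.02 with length and GC correction. In Mrpl52 the CKO effect was -0.03 in young and 0.66 in aged mice, and the difference was 0.69 ± 0.26 (SE; adjusted p = 0.953). Mrpl52 was at 124 ± 16.5 CPM (SD, n = 4) in young CTL and 121 ± 24.04 CPM (SD, n = 4) in young CKO mice, and at 65.95 ± 10.2 CPM (SD, n = 4) in aged CTL and 104 ± 14.7 CPM (SD, n = 5) in aged CKO mice.

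With each gene's log2 CPM centred within each age, the Pearson r of a member with the mean of the other members over all 17 mice ranged from -0.065 to 0.908 with a median of 0.649. For the 12274 other genes tested it ranged from -0.924 to 0.961 with a median of -0.015. It was 0.908 for Mrps24, 0.885 for Mrpl18 and Mrps12 (a protein of the decoding centre), 0.881 for Mrpl34 and 0.878 for Mrpl30. At the other end were Mrps31 at -0.065 and Mrps27 at -0.032. Of all other genes, those closest to the mean of the members were Sh3bgrl3 (0.961), Polr2h (0.939), a subunit shared by the RNA polymerases, Tmem258 (0.935), Atp5g1 (0.93), which encodes subunit c of ATP synthase, Rps27l (0.924), Nhp2 (0.921), Phax (0.906), 1810009A15Rik (0.905), Rps19bp1 and Uqcrq (both 0.902), a subunit of complex III. These values describe 17 mice, whose total counts also differed as given above.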

How the data were processed

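The authors deposited counts of reads per gene for 34 libraries of 100 sorted cells. Per the submitters' processing notes and the study's methods, reads were aligned with HISAT2 to mm10 (GRCm38) and counted with Rsubread. Annotation, strand and the handling of reads with several alignments are not given in the sources used here. Without molecular identifiers, PCR copies are counted. Libraries of a mouse were summed (33 used, 17 mice) and tested with edgeR 4.0.16 in R 4.3.3: filterByExpr (minimum count 10, total 15), TMM, quasi-likelihood test, and Benjamini-Hochberg adjustment over all genes tested (threshold 0.05). Each age was fitted alone for genotype, and all mice together for age and interaction. Standard errors are the absolute log2 fold change over the square root of F. Lengths, GC content and gene positions came from GENCODE (GRCm38), promoters from RefSeq.

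Named members were those called in each contrast (at most 10 a direction by p, or the 5 of smallest p where fewer than 5 passed), the 5 highest and lowest per length, the S18 paralogs, Mrps30, Mrps36 and Mrpl12. Other members were named after their values were seen. Members and lists were chosen with earlier results of these data known. Alternatives were DESeq2 1.42.0, limma 3.58.1, likelihood ratio tests, other scalings and filters, a Y-linked covariate, leaving out mice, and corrections of each mouse's trend with length and GC content over 20 bins. The code was tested on simulated data.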

Additional observations from a re-analysis of the deposited data

Results flagged for a closer look

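In 11 of 196 groups examined, from 47 named members and 2 summary measures (the members' mean level and share of counts) in 4 groups of mice, 1 mouse lay far from the rest of its group by Dixon's criterion, where chance alone gives 9.8. The mouse labelled aged CKO 121 was highest for Mrpl38 at 126.4 CPM (next 91.81), lowest for Mrpl51 at 77.23 CPM (next 111.9) and lowest for Mrps18a at 77.23 CPM (next 89.16). The mouse labelled aged CTL 124 was highest for Mrpl22 at 114.7 CPM (next 56.03). These are the 2 mice whose Ythdf2 level went against their labels.

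Young CKO mouse 3 was lowest for Mrpl19 at 82.6 CPM (next 102.4) and for Mrps7 at 141.7 CPM (next 165.8), and highest for Mrps11 at 121.4 CPM (next 76.75). Mrpl22 was highest in aged CKO mouse 78 at 65.2 CPM (next 56.84), and Mrpl48 was lowest in aged CKO mouse 94 at 61.47 CPM (next 80.62). Among young CTL mice, mouse 2 was lowest for Mrpl47 at 20.77 CPM (next 46.62) and mouse 3 was lowest for Mrps31 at 54.86 CPM (next 65.54).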

How the results depend on the processing

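The library codes in the labels follow age, aged CTL mouse 99 rests on 1 library, and Ythdf2 goes against the labels of 2 aged mice, which limits the age and aged genotype comparisons. The settings were compared over 67 pairs of a named member and a comparison. These were the pairs that the naming rule picked, mostly by smallest p, and the age comparisons of the S18 paralogs, Mrps30, Mrps36 and Mrpl12. Over all settings 1475 values kept direction and call, 47 lost and 8 gained a call, and 16 changed sign. An uncalled pair, as in all genotype and interaction comparisons, counted as kept when it stayed uncalled. Over all members, 7 of the 36 calls in CTL and 7 of the 39 in CKO mice held with length and GC correction. The causes were not tested.

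With length correction 16 members were lower and 1 higher in aged CTL mice (median -0.2558) and 22 lower in aged CKO mice (median -0.2741). With length and GC correction 8 were lower in each (medians -0.2376 and -0.2142). Both corrections were chosen after seeing the data. The likelihood ratio test over libraries, which took each library rather than each mouse as a replicate, called 1 member higher in aged CKO mice, beside 1.21% of all genes. Leaving out single mice gave 20 to 42 members lower in aged CTL mice (20 without young CTL 4, 23 without aged CTL 99, 24 without young CTL 1, beside 4.29%, 5.30% and 5.27% of all genes) and 24 to 38 in CKO mice (24 without young CKO 2, beside 5.92%).

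Length correction gave -0.0011 for Mrps5 and 0.1245 for Mrps18b with age in CTL mice, and -0.015 for Mrpl58, 0.0798 for Mrps18b and 0.0755 for Mrpl12 in CKO mice. Length and GC correction gave 0.0798 for Mrps18b and 0.0259 for Mrps18c in CTL mice, and -0.1502 for Mrpl38, -0.165 for Mrpl4, 0.0225 for Mrps18b and 0.0152 for Mrps36 in CKO mice. Over all 78 members, 20 in CTL and 17 in CKO mice changed sign with length correction, of which 0 had been called. With length and GC correction 12 and 14 did, of which Mrps18c and Mrps33 in CTL mice and Mrpl33, Mrpl42 and Mrps36 in CKO mice had been called lower. Without the mice labelled 121 and 124, Mrpl22 was at 0.1422 between aged genotypes and Mrpl38 at -0.0343 with age in CKO mice. Leaving out single mice gave -0.3784 to 0.1316 for Mrpl22 between aged genotypes, and -0.0415 to 0.1459 for Mrpl38 and -0.0402 to 0.1469 for Mrpl4 with age in CKO mice.

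With the mouse number as a replicate block in young mice, 0 members were called (median 0.0988), beside 0.104% of all genes higher and 0.0174% lower. Same-numbered mice had correlations of 0.05, -0.019, 0.038 and 0.006 in their deviations, so no pairing by number was detected in this measure. A pairing, such as by litter or day, need not leave a correlation over all genes, and it was not tested. With the library letter as a replicate block in aged libraries, 0 were called (median 0.0229), beside 0.133% and 0.222%. That fit also took each library as a replicate and had no term for the mouse.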
